A study of Rattus norvegicus with 30 samples.

Results

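Acute phase plasma proteins are secreted by hepatocytes during inflammation and tissue injury, and their genes were followed here in rat liver after partial hepatectomy. The genes were chosen by name, with earlier results of these data known: A2m, Serpina3n, Itih4, Lcn2, Hp, Hpx, Cp, Lbp, Orm1 and Crp. All 10 were measured, each by 1 probe set carrying a single gene symbol, among 18166 named genes in all. The samples were livers of 30 wildtype Wistar rats each hybridised to its own Affymetrix Rat Gene 2.0 ST array, with 6 rats in each of 5 groups. Part of the liver was resected in 3 groups, 30% in PH30, 70% in PH70 and 90% in PH90, while the Sham group had a sham operation and the Unoperated group had none. Liver was taken 24 hours after the operation and snap frozen. The comparisons ask how the operation itself and how the extent of resection change liver gene expression.

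The acute phase response is driven in hepatocytes mainly by interleukin 6, which acts through the gp130 receptor chain and STAT3, and by interleukin 1 and tumour necrosis factor, which act through NF-kappa-B and C/EBP factors. Interleukin 6 and STAT3 are also active early in liver regeneration after resection. In the rat, alpha-2-macroglobulin is a major inducible acute phase protein, whereas C-reactive protein is made constitutively and responds little. Negative acute phase genes, such as that of albumin, are those whose output falls in the same response.

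Upstream sequence is shown for 4 members in which letters of a response element known from acute phase genes lay in the 250 bases before the start site. RefSeq promoter windows on GRCr8 were matched for 7 of the 10 genes, and A2m, Hp and Lbp had no entry. The letters searched on both strands were CTGGGAA (type 2 interleukin 6 response element), TTCNNNGAA (STAT), TTGCNNAA (C/EBP) and GGGANNTTC (NF-kappa-B). Among 27457 promoter windows of that length, 9.33% held the first, 7.52% the second, 9.2% the third and 3.27% the fourth. Capitals mark the matches, bases inside the annotated gene are left out, and each line runs 5′ to 3′ on the gene's strand.
Lcn2, chr3:36081852-36082030 (GRCr8, minus strand): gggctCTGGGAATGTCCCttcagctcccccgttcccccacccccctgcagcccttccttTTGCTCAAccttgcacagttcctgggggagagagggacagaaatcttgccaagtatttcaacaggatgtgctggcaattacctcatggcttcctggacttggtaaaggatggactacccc
Serpina3n, chr6:129088142-129088391 (GRCr8, plus strand): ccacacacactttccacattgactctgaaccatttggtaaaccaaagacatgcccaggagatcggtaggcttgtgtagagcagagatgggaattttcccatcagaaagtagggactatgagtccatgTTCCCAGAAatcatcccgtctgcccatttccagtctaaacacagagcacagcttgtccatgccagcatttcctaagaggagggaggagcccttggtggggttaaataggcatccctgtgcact
Itih4, chr16:6086735-6086984 (GRCr8, plus strand): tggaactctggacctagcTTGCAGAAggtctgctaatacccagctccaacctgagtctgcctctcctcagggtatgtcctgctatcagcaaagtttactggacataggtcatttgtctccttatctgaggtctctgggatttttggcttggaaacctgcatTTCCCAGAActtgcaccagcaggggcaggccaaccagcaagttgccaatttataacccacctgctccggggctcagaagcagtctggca
Orm1, chr5:81788259-81788508 (GRCr8, plus strand): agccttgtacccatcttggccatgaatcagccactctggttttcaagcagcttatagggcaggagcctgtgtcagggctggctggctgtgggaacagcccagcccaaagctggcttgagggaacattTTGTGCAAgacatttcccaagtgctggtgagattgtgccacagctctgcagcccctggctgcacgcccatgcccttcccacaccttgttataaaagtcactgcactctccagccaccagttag
In Lcn2 the CTGGGAA letters overlap a minus strand NF-kappa-B match, and a C/EBP match follows them. In Serpina3n and Itih4 the STAT match TTCCCAGAA holds the reverse complement of CTGGGAA. Hpx and Cp, not shown, each held 1 C/EBP match, and no match was found in the Crp window. The whole Cp window, with its match, lies inside the annotated extent of the Cp gene. Such matches describe letters and do not show binding.

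Values are log2 signals that the submitters centred so that every probe set has a median of 0 over the 30 arrays. A value therefore gives a rat's position relative to the other rats for the same gene, and levels of different genes cannot be compared. Adjusted p-values are from limma, fitted to all 18166 genes and all 5 groups and adjusted by Benjamini-Hochberg, and called means an adjusted p under 0.05. One rat in each of PH30 and PH70 stood apart from its group over all genes. Rat 95 of PH30 correlated on average at -0.11 with the rest of PH30 and at 0.50 with PH70, and rat 139 of PH70 at -0.11 with the rest of PH70 and at 0.20 with Sham. Results that rest on them are given with and without them. Quantile normalization, used below as an alternative, gives every array the same spread by construction, and whether this alone moved a value was not tested. Since the liver was profiled as bulk tissue, fewer hepatocytes and less RNA per hepatocyte cannot be told apart in any difference below.

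In sham-operated rats 9 of the 10 genes rose over unoperated rats, all but Crp, and the same 9 had no overlap between these groups. Across all genes, 0.308% were called higher in this comparison and 0.936% were higher with no overlap. Because the members and the lists below were chosen with earlier results known, counts above such shares are not independent evidence. Of 5 red cell markers, 1 was also called higher in Sham (Hbb-b1, 1.13). The median log2 difference of the 10 genes was 0.50, against 0.0037 over all genes. Unoperated rats held the highest rat numbers, so whatever goes with the numbers cannot be told apart from the absence of operation. After resection the genes differed in where their means lay. A2m, Lcn2 and Serpina3n had their highest means in PH90, Lbp, Hp and Itih4 in PH30, Orm1 in PH70, and Hpx, Crp and Cp in Sham. In none of the 10 genes was the difference between the highest and the next highest group called. For Lbp, PH30 exceeded PH70 by 0.008 (adjusted p = 0.99 in limma). The lowest mean was that of unoperated rats in 7 genes and that of PH90 in Crp, Cp and Itih4.

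**Figure D1:**
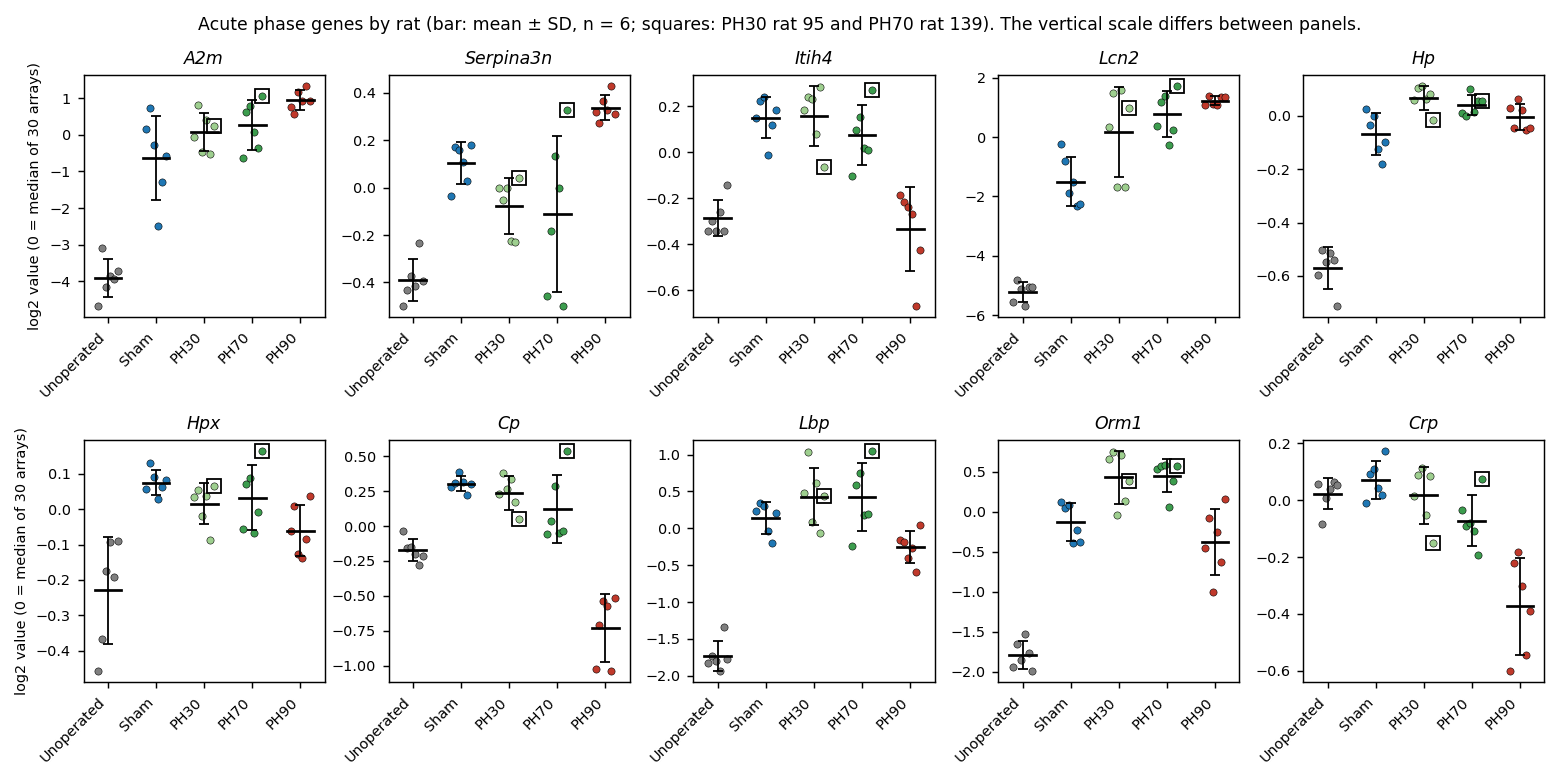
Centred log2 value of each gene in every rat, with 1 panel per gene, the groups on the horizontal axis, and the mean ± SD (n = 6) as bars; squares mark PH30 rat 95 and PH70 rat 139. Unoperated rats lie below every operated group for A2m, Lcn2, Lbp, Orm1 and Hp, while PH90 rats are lowest for Crp and Cp.

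Among the protease inhibitors, A2m encodes alpha-2-macroglobulin, which traps proteases and binds cytokines. A2m ran from -4.68 to -3.10 (median -3.89) in unoperated rats and from -2.50 to 0.73 (median -0.43) in sham rats. Its values ran from -0.52 to 0.82 (median 0.09) in PH30, from -0.63 to 1.07 (median 0.35) in PH70 and from 0.56 to 1.35 (median 0.93) in PH90. Every operated rat lay above every unoperated rat, and the operated groups overlapped. The sham rise was 9.75-fold, a log2 difference of 3.29 with a standard error (SE) of 0.37 (adjusted p = 2.45e-06 in limma, higher in 6 of 6 sham rats). Over 8 alternative fits this log2 difference ran from 2.21 to 3.29, with a highest adjusted p of 0.00544. PH90 exceeded Sham by 1.58 (SE 0.37, adjusted p = 0.00106). The differences of PH30 and PH70 from Sham, 0.70 and 0.89, missed the threshold (adjusted p = 0.303 and 0.102), and the second passed it without sham rat 41 (1.16, adjusted p = 0.0243). Without sham rat 112, the lowest of its group, they were 0.32 (adjusted p = 0.646) and 0.51 (adjusted p = 0.334). PH90 over PH30 was 0.88 and not called (adjusted p = 0.0729). It passed with the 2 groups fitted alone (adjusted p = 0.00771) or without PH30 rat 98 (1.03, adjusted p = 0.0441). Over 8 alternative fits its lowest difference was 0.47 and its highest adjusted p 0.524. PH90 over PH70 was 0.69 and not called (adjusted p = 0.209).

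Serpina3n, a secreted serine protease inhibitor related to alpha-1-antichymotrypsin, ran from -0.50 to -0.23 (median -0.41) in unoperated rats and from -0.04 to 0.18 (median 0.13) in sham rats. It ran from -0.23 to 0.04 (median -0.03) in PH30, from -0.50 to 0.33 (median -0.09) in PH70 and from 0.27 to 0.43 (median 0.32) in PH90. PH90 rats lay above every sham and PH30 rat. PH70 rats were spread from the range of unoperated rats up to 0.13, except rat 139 at 0.33. Rat 139 was the only PH70 rat within the PH90 range. Serpina3n rose by 0.49 in Sham over Unoperated (SE 0.09, adjusted p = 0.00645). It was the single member called higher in PH90 than in both smaller resections, by 0.45 over PH70 (adjusted p = 0.000522) and 0.41 over PH30 (adjusted p = 0.000867). Against Sham, the PH90 difference of 0.24 just missed the threshold (adjusted p = 0.0537), and it was called without rats 95 and 139 (adjusted p = 0.021) or with the 2 groups fitted alone (adjusted p = 0.00293), while after quantile normalization it was 0.10 (adjusted p = 0.556). The PH70 difference from Sham, -0.22, was not called (adjusted p = 0.121), but without those 2 rats it was -0.30 and called (adjusted p = 0.00785).

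Itih4 encodes a plasma protein of the inter-alpha-trypsin inhibitor heavy chain family. Its values ran from -0.34 to -0.14 (median -0.32) in unoperated rats, from -0.01 to 0.24 (median 0.17) in sham rats, and from -0.67 to -0.19 (median -0.25) in PH90. It ran from -0.07 to 0.28 (median 0.21) in PH30 and from -0.10 to 0.27 (median 0.06) in PH70. Sham, PH30 and PH70 rats lay above unoperated rats, and PH90 rats overlapped the unoperated rats. Itih4 rose by 0.44 in Sham over Unoperated (SE 0.07, adjusted p = 0.00166). It fell by 0.49 in PH90 against Sham (SE 0.07, adjusted p = 3.97e-06) and by 0.41 against PH70 (adjusted p = 9.74e-05). Its PH90 mean differed from the unoperated mean by -0.05, which was not called (adjusted p = 0.72).

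Among the genes that handle iron, heme and copper, Lcn2 encodes lipocalin 2, which binds bacterial siderophores. Lcn2 ran from -5.70 to -4.83 (median -5.09) in unoperated rats and from -2.32 to -0.24 (median -1.70) in sham rats. It ran from -1.69 to 1.59 (median 0.66) in PH30, from -0.26 to 1.74 (median 0.77) in PH70 and from 1.09 to 1.38 (median 1.24) in PH90. Operated rats did not overlap unoperated rats, PH90 did not overlap Sham, and 2 PH30 rats lay within the sham range. The sham rise was 13.2-fold, a log2 difference of 3.72 (SE 0.46, adjusted p = 1.38e-05), the highest of all 18166 genes. It was 1.70 and not called after quantile normalization (adjusted p = 0.157). Against Sham, Lcn2 was higher by 1.67 in PH30 (adjusted p = 0.0315), 2.27 in PH70 (adjusted p = 0.000646) and 2.73 in PH90 (adjusted p = 1.81e-05), each with an SE of 0.46. The PH30 call was lost without any one of PH30 rats 65, 98 or 130 or sham rats 45, 114 or 143 (1.39 to 2.04 over all leave-one-out fits), and with the 2 groups fitted alone (adjusted p = 0.116). Neighbouring resections did not pass the test, with differences of 0.60 for PH70 over PH30 and 0.46 for PH90 over PH70. Over leave-one-out fits the first ran from 0.23 (without PH30 rat 140, and also without rat 99) to 0.89 and the second from 0.25 (without PH70 rat 97) to 0.65. PH90 over PH30 (1.06, adjusted p = 0.0838) passed without PH30 rat 98 (1.33, adjusted p = 0.0314) or 130 (1.35, adjusted p = 0.0269), and without rats 95 and 139 (1.22, adjusted p = 0.0449), and it was 0.69 without PH30 rat 140 (adjusted p = 0.263) or 99.

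Hp, haptoglobin, binds free haemoglobin, and Hpx, hemopexin, binds free heme. Hp ran from -0.71 to -0.50 (median -0.54) in unoperated rats and between -0.18 and 0.11 in all operated rats. Hpx ran from -0.46 to -0.09 (median -0.18) in unoperated rats and from 0.03 to 0.13 (median 0.07) in sham rats. Operated and unoperated rats did not overlap for Hp, and for Hpx the PH90 rats overlapped the unoperated rats. Hp rose by 0.50 in Sham over Unoperated (SE 0.04, adjusted p = 1.49e-08) and Hpx by 0.30 (SE 0.06, adjusted p = 0.00437). The Hp difference was 0.79 after quantile normalization (adjusted p = 3.58e-11). Neither was called in any comparison of a resected group with Sham or among resected groups. Hp was near the threshold in PH30 against Sham (0.14, adjusted p = 0.0545) and passed without PH30 rat 95 (0.15, adjusted p = 0.0293) or without sham rat 141 (0.16, adjusted p = 0.0425), without which PH70 over Sham also passed (0.13, adjusted p = 0.0433). Hpx in PH90 against Sham (-0.14, adjusted p = 0.0598) passed without PH90 rat 111 (-0.16, adjusted p = 0.0386). Over 8 alternative fits the adjusted p of this Hpx difference ran from 0.0388 to 0.105 in limma.

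Cp encodes ceruloplasmin, a copper-carrying ferroxidase of plasma. It ran from -0.28 to -0.04 (median -0.18) in unoperated rats, from 0.22 to 0.39 (median 0.31) in sham rats, and from -1.04 to -0.51 (median -0.64) in PH90. PH30 ran from 0.05 to 0.38 (median 0.24) and PH70 from -0.05 to 0.54 (median 0.00), with rat 139 the highest in PH70. The PH90 rats lay below all other rats. Cp rose by 0.47 in Sham over Unoperated (SE 0.09, adjusted p = 0.00879). It then fell by 1.04 in PH90 against Sham (SE 0.09, adjusted p = 4.29e-10), by 0.85 against PH70 (adjusted p = 5.88e-08) and by 0.56 against Unoperated (adjusted p = 1.7e-05). The last was -0.23 and not called after quantile normalization (adjusted p = 0.0703). Without rats 95 and 139, Cp was also called lower in PH70 than Sham (-0.27, adjusted p = 0.0189).

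Lbp and Orm1 bind microbial and lipophilic ligands. Lbp encodes lipopolysaccharide-binding protein, which passes bacterial endotoxin to CD14, and Orm1 encodes alpha-1-acid glycoprotein, a carrier of drugs and lipids. Lbp ran from -1.94 to -1.35 (median -1.78) in unoperated rats, from -0.19 to 0.34 (median 0.22) in sham rats, and from -0.59 to 0.04 (median -0.23) in PH90. It ran from -0.06 to 1.03 (median 0.46) in PH30 and from -0.24 to 1.05 (median 0.39) in PH70, where rat 139 was the highest. Lbp was thus lowest in unoperated rats, and the operated groups overlapped. Orm1 ran from -1.99 to -1.53 (median -1.81) in unoperated rats, from -0.40 to 0.12 (median -0.09) in sham rats, from -0.05 to 0.74 (median 0.52) in PH30, from 0.06 to 0.58 (median 0.55) in PH70 and from -1.0 to 0.15 (median -0.35) in PH90. For both genes all operated rats lay above all unoperated rats, and PH90 overlapped Sham and PH70.

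The sham rise was 3.67-fold for Lbp (log2 1.88, SE 0.17, adjusted p = 6.19e-08) and 3.17-fold for Orm1 (log2 1.66, SE 0.16, adjusted p = 6.6e-08). Orm1 was higher than Sham by 0.56 in PH30 (SE 0.16, adjusted p = 0.0331) and 0.57 in PH70 (adjusted p = 0.00858). The PH30 call of Orm1 was lost without any one of PH30 rats 65, 98 or 130 or sham rats 112, 114 or 143 (0.50 to 0.65 over all leave-one-out fits). From PH70 to PH90, Orm1 fell by 0.82 (adjusted p = 0.000165) and Lbp fell by 0.68 (SE 0.17, adjusted p = 0.00336). The Lbp difference was -0.63 and not called after quantile normalization (adjusted p = 0.0557). Against Sham, the PH90 values of Lbp and Orm1 differed by -0.40 and -0.25 and were not called (adjusted p = 0.0742 and 0.246). The Lbp difference passed without PH90 rat 111 (-0.46, adjusted p = 0.048) or sham rat 114 (-0.47, adjusted p = 0.0452). Over 8 alternative fits the adjusted p of this Lbp difference ran from 0.013 to 0.242 in limma.

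Crp encodes C-reactive protein, a pentraxin that binds phosphocholine on microbes and damaged cells. Crp ran from -0.08 to 0.06 (median 0.05) in unoperated rats and from -0.01 to 0.17 (median 0.07) in sham rats. It ran from -0.15 to 0.11 (median 0.05) in PH30, from -0.19 to 0.08 (median -0.09) in PH70 and from -0.60 to -0.18 (median -0.34) in PH90. Unoperated and sham rats overlapped, and PH90 rats lay below both and overlapped PH70 narrowly. It was the single member not called in Sham over Unoperated (0.05, 95% confidence interval -0.08 to 0.18, adjusted p = 0.87). It fell by 0.44 in PH90 against Sham (SE 0.06, adjusted p = 1.06e-06) and by 0.30 against PH70 (adjusted p = 0.000479). The latter was -0.19 after quantile normalization (adjusted p = 0.0201).

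**Figure D2:**
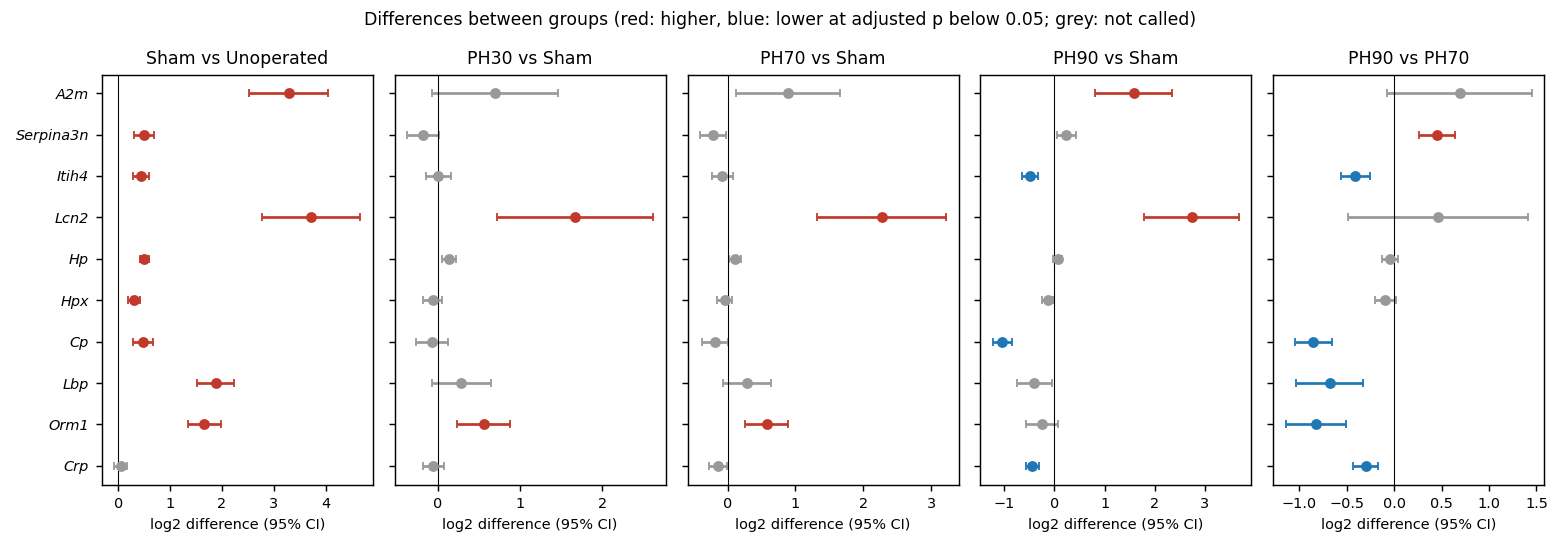
Log2 difference with its 95% confidence interval for each gene in 5 comparisons, 1 panel per comparison; red and blue points passed an adjusted p below 0.05 and grey points did not. All genes except Crp are red for Sham over Unoperated, and PH90 against Sham holds 2 red and 3 blue points.

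Read by comparison, 2 members were called higher in PH30 than in Sham (Lcn2 and Orm1), where 2.2% of all genes were. Neither was called without any one of PH30 rats 65, 98 or 130 or sham rats 114 or 143, and 1 was called without sham rat 45 or 112. The median log2 difference of the 10 members was 0.07, against 0.01 over all genes. In PH70 over Sham the same 2 genes were called higher, where 10.5% of all genes were, and 5 members were called (Crp, Serpina3n and Cp lower in addition) without rats 95 and 139. Without PH70 rat 139 alone the count was 4. Rat 139 was the highest PH70 rat in 8 of the 10 members. The members' median difference was 0.03, against -0.01 over all genes.

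PH90 against Sham gave 2 members higher (A2m and Lcn2) and 3 lower (Cp, Itih4 and Crp), beside 19.9% and 14.7% of all genes. With no overlap between the groups, 2 members were higher (Lcn2 and Serpina3n) and 3 lower (Cp, Itih4 and Crp), beside 12.1% and 8.48% of all genes. The share called in either direction was 34.6% over all genes, against 5 of the 10 members, whose median difference was -0.19 against -0.0022 over all genes. Between PH70 and PH30 none of the 10 members was called in limma, none had an unadjusted p below 0.05, and 2.27% of all genes were called. PH90 against PH70 gave 1 member higher (Serpina3n) and 5 lower (Cp, Orm1, Lbp, Itih4 and Crp), beside 14.1% and 10.4% of all genes. PH90 against PH30 gave the same counts, beside 18.4% and 13.1%. These comparisons share PH90 rats. An F-test over the 3 resected groups called 6 members, beside 32.4% of all genes, and did not call A2m, Lcn2, Hp or Hpx.

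Against unoperated rats, 9 members were called higher in PH30 and in PH70, beside 3.48% and 9.31% of all genes. PH90 against Unoperated gave 7 members higher and 2 lower (Crp and Cp), beside 19.3% and 14.5% of all genes. All 3 comparisons share the unoperated rats. The calls of Serpina3n in PH30 and PH70 (0.31 and 0.28) and of Cp in PH70 (0.29) were lost in some leave-one-out fits. That of Serpina3n in PH30 was lost without PH30 rat 65, 95, 98 or 99 or unoperated rat 145, 148, 151 or 152, with a lowest difference of 0.29. That of Serpina3n in PH70 was lost without PH70 rat 59, 97 or 139 or unoperated rat 145, 147, 148, 151 or 152, with a lowest difference of 0.19, and with the 2 groups fitted alone (adjusted p = 0.145), and the difference was 0.42 after quantile normalization. That of Cp in PH70 was lost without PH70 rat 59 or 139 or unoperated rat 148, 150 or 151, with a lowest difference of 0.21. The Hpx call in PH90 (0.17) was lost without unoperated rat 145 (0.12) or 152 (0.14) and with the 2 groups fitted alone (adjusted p = 0.0845).

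Other positive acute phase genes were followed as a list of 22 measured genes. Saa4, Kng2 and Kng2l1 were also listed but had no probe set carrying their symbol alone. In Sham over Unoperated, 6 were higher and none lower, beside 0.308% and 0.429% of all genes, with a median of 0.31 against 0.0037 over all genes. Of the 6 called, the 4 with the largest differences were Kng1 (kininogen, 1.68, SE 0.10), Fgl1 (a fibrinogen-like hepatokine, 1.27), C4bpa (a complement inhibitor, 0.82) and C9 (a terminal complement component, 0.69). Kng1 ran from -1.95 to -1.64 in unoperated rats and from -0.53 to 0.12 in sham rats, with no overlap. Timp1, an inhibitor of matrix metalloproteinases, was called higher than Sham in PH30 (1.18, adjusted p = 0.0193), PH70 (1.56) and PH90 (2.02). The PH30 call of Timp1 was lost without PH30 rat 98 (1.04, adjusted p = 0.054) or sham rat 41, 45 or 114, with the 2 groups fitted alone (adjusted p = 0.0854) and after quantile normalization (adjusted p = 0.053).

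In PH90 against Sham, 9 of the 22 were higher and 6 lower, with a median difference of 0.19, where 19.9% and 14.7% of all genes were. Il1rn, the interleukin 1 receptor antagonist, was higher by 1.29, Mt2A, a metallothionein, by 1.01 and Hamp, the iron hormone hepcidin, by 0.90. Mt2A was not called after quantile normalization (0.73, adjusted p = 0.102). Fga, the fibrinogen alpha chain, was higher by 0.26, while Fgl1 fell by 1.15. PH70 against Sham gave 3 higher and 1 lower, beside 10.5% and 8.15% of all genes.

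**Figure D3:**
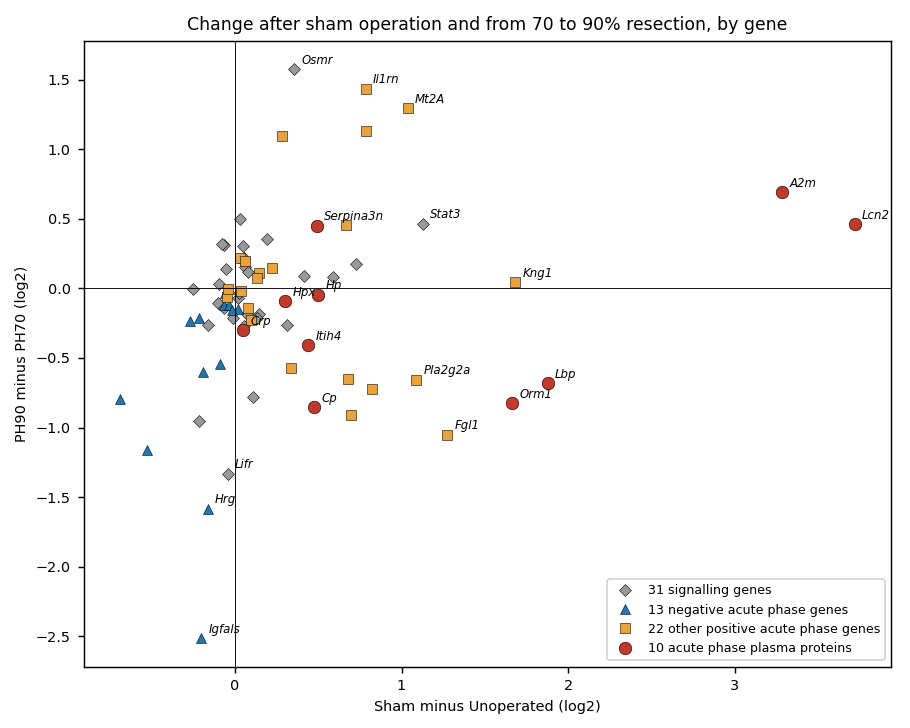
Each point is 1 gene, with its Sham minus Unoperated log2 difference on the horizontal axis and its PH90 minus PH70 log2 difference on the vertical axis, coloured by list; the 2 axes share no rats. Lbp, Orm1, Cp, Itih4 and Fgl1 lie to the right and below zero, and A2m and Lcn2 lie farthest to the right with positive vertical values that did not pass the test.

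Of 13 negative acute phase genes measured, 1 was lower in Sham than Unoperated (Ttr, transthyretin, -0.21), 2 were lower in PH30 than Sham (Mug2 and Pon1), 8 in PH70 and 12 in PH90, and none was higher in these comparisons. The share of all genes called lower was 0.429%, 3.34%, 8.15% and 14.7% in the same order. Their median difference in PH90 against Sham was -0.65, against -0.0022 over all genes. The Sham call of Ttr was lost without sham rat 41 or 45 or unoperated rat 150, 151 or 152 (-0.21 to -0.20 in these fits). In PH90 against Sham, Igfals, which stabilises circulating insulin-like growth factor, fell by 3.29, Hrg, histidine-rich glycoprotein, by 2.14, Serpina6, the corticosteroid carrier, by 1.87 and Mug2, a murinoglobulin, by 1.46. Alb, albumin, differed by -0.07 and was not called (adjusted p = 0.114).

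Of 31 signalling genes measured, 2 were higher in Sham than Unoperated, beside 0.308% of all genes. Stat3 was higher by 1.13 (SE 0.15, adjusted p = 2.66e-05), running from -1.16 to -0.95 in unoperated rats and from 0.06 to 0.12 in sham rats, and Tnfrsf1a, a tumour necrosis factor receptor, was higher by 0.59. In PH90 against Sham, 10 were higher and 11 lower, beside 19.9% and 14.7% of all genes. Osmr, the oncostatin M receptor chain, was higher by 2.45, while Lifr, the leukemia inhibitory factor receptor, fell by 1.67, Cebpa, a hepatocyte C/EBP factor, by 1.40 and Nr3c1, the glucocorticoid receptor, by 1.19. Il6r, Stat3 and Socs3 were not called in PH90 against Sham (-0.49, 0.37 and 0.55, adjusted p = 0.0509, 0.0526 and 0.0555). Without rats 95 and 139, which are in neither group but enter the shared estimate of spread, all 3 were called (adjusted p = 0.0202, 0.0209 and 0.0145).

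Genes with the most similar values over the 30 arrays were named as a description, since much of the likeness lies between the groups. A2m was most like Lcn2 (Pearson r = 0.94, and 0.59 after each group's mean was removed), and Lbp was most like Orm1 (0.95 and 0.55). Cp was most like Cfb, complement factor B (0.94 and 0.70), Itih4 most like Fgl1 (0.94 and 0.75), and Serpina3n most like Stat3 (0.87 and 0.73). Hp was most like Kng1, at 0.96 over all arrays and 0.25 within groups. Orm1 was most like Wfdc21 (0.96 and 0.70), Crp most like Ang (0.91 and 0.72) and Hpx most like Isyna1 (0.84 and 0.65).

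Lcn2 is also made by neutrophils, so 13 neutrophil marker genes were set beside it. Their mean log2 value had medians of -0.15 in Unoperated, -0.06 in Sham, 0.07 in PH30, 0.06 in PH70 and 0.14 in PH90. The lowest and highest groups by median were the same as for Lcn2, while PH30 and PH70 stood in the opposite order. None of the 13 was called in Sham over Unoperated in limma, beside 0.308% of all genes called higher and 0.429% lower. Of the 13, 1 had an unadjusted p below 0.05, beside 2007 of all 18166 genes. Above 0 lay 12 of the 13, beside 9392 of all genes. In PH90 over Sham 4 were called higher (S100a8, S100a9, Mmp9 and Cxcr2) and in PH70 over Sham also 4 (S100a8, S100a9, Mmp8 and Ncf1), all named after their values were seen, beside 19.9% and 10.5% of all genes in the same order. In PH90 against PH30 none was called higher and 2 lower, beside 18.4% and 13.1% of all genes, with 8 above 0 and 5 below. In PH90 against PH70 none was called, beside 14.1% higher and 10.4% lower of all genes, with 5 above 0 and 8 below. PH70 rat 139 had the highest marker mean of the 30 rats, 0.46, and the highest Lcn2 of PH70. Centred values do not show which markers lie near background, and the part of neutrophils in the Lcn2 differences was not tested.

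**Figure D4:**
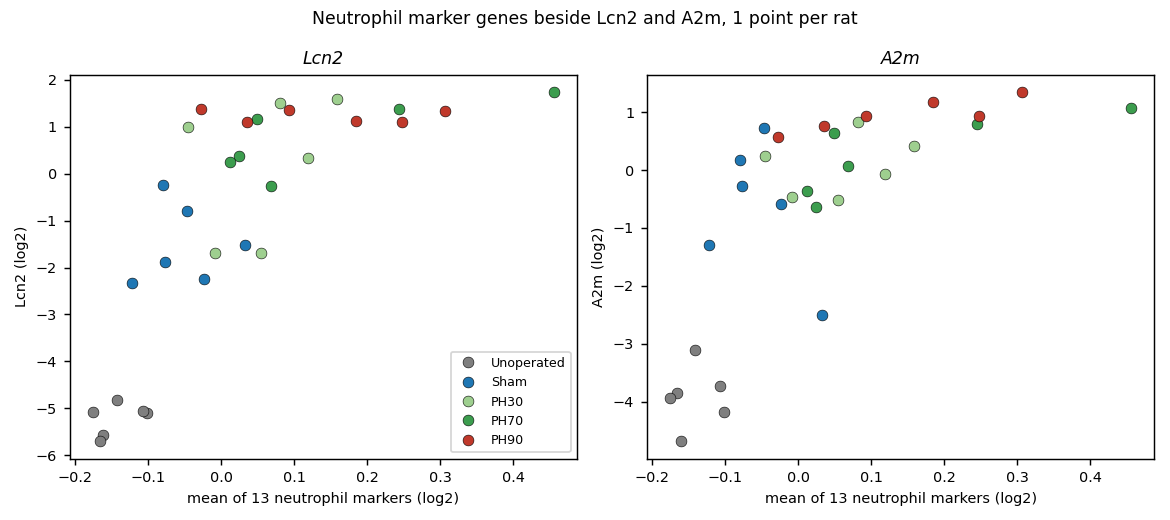
Log2 value of Lcn2 (left) and A2m (right) against the mean of 13 neutrophil marker genes, 1 point per rat, coloured by group. Unoperated rats lie at the lower left in both panels, and PH70 rat 139 lies farthest to the right at 0.46.

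Of 13 macrophage and Kupffer cell markers, 7 were lower and 1 higher (Cd163, 0.44) in PH90 than Sham. None of the 13 was called in Sham over Unoperated, beside 0.308% of all genes called higher and 0.429% lower. In Sham over Unoperated, 4 of the 13 had an unadjusted p below 0.05 in limma, beside 2007 of all 18166 genes. Of 7 hepatocyte markers, 3 were lower (Cyp2e1, Hnf4a and Ttr) and 1 higher (Tat) in PH90 than Sham, named likewise after their values were seen, and Hnf4a and Ttr also stand in the lists above. In the same comparison 14.7% of all genes were lower and 19.9% higher. The part of these markers in the lower values of Cp, Itih4 and Crp was not tested.

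Of 5 red cell markers measured, 1 was called higher in Sham than Unoperated, Hbb-b1, a beta globin (1.13, adjusted p = 0.000373 in limma), with no overlap between the groups. Hba-a1, an alpha globin, did not overlap either but was not called (0.54, adjusted p = 0.0802). Both were named after their values were seen. Of all genes, 0.308% were called higher in this comparison and 0.936% were higher with no overlap. The mean log2 value of the 5 ran from -0.30 to 0.05 in unoperated rats, from 0.16 to 0.45 in sham rats, from -0.12 to 0.35 in PH30, from -0.26 to 0.32 in PH70 and from -0.26 to 0.06 in PH90. By this mean, sham rats lay above all unoperated and all PH90 rats. Slc4a1, Ahsp and Epb42 overlapped between Sham and Unoperated and were not called (0.20, 0.09 and -0.06). They were not called in PH90 against Sham either (0.01, -0.03 and -0.21). In PH90 against Sham both globin genes were lower, with differences of -1.13 for Hbb-b1 (adjusted p = 3.12e-06) and -0.41 for Hba-a1 (adjusted p = 0.0283). In that comparison 14.7% of all genes were called lower. The part of red cells in the sham rise of the 9 members was not tested.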

How the data were processed

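Liver RNA of 30 rats was hybridised to Affymetrix Rat Gene 2.0 ST arrays. The deposited log2 values were made by RMA in Affymetrix Expression Console, per the submitters' processing notes; their versions are not stated in the sources used. The values run from -6.04 to 5.44 with a median of 0 for each of 29489 probe sets, so each probe set was centred before deposit and absolute levels are lost; a filter on dim probe sets was therefore not run. The log2 scale follows from RMA.

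A single gene symbol was attached to 18511 probe sets, several to 575 and none to 10403; probe sets of a gene were averaged to 18166 genes. Differences were tested in limma 3.58.1 (R 4.3.3) with lmFit and eBayes over all 5 groups (25 residual degrees of freedom), Benjamini-Hochberg over all genes, called below 0.05; the code was tested on simulated data. The replicate is the rat. The number of arrays limits precision. Rat numbers were highest in unoperated rats (145 to 152, against 37 to 143). The labels do not say what the numbers follow, so whatever goes with them and the absence of operation cannot be told apart.

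The named genes were all 10 members, and in each list up to 4 called genes by size of difference plus up to 3 genes followed throughout; further genes are said to be so where they appear. The members and lists were chosen with earlier results of these data known. Alternatives were a fit of the groups alone, array weights, leaving out rats 95 and 139, re-centring, quantile normalization, all probe sets, robust eBayes, a threshold of 0.01 and leaving out each rat; applying them to the lists was added after seeing the data.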

Additional observations from a re-analysis of the deposited data

Results flagged for a closer look

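Each member was tested for a lone extreme rat in each group, 50 gene and group pairs in all, and chance marks about 1 in 20 groups; 2 were marked. Lbp in unoperated rat 150 was -1.35, with the nearest other rat at -1.73 and the lowest at -1.94, a gap of 0.653 of the group's range against a critical value of 0.625. Crp in unoperated rat 152 was -0.083, with the nearest at 0.01 and the highest at 0.06, a gap of 0.627.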

How the results depend on the processing

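No result changed direction while called in either fit; 25 leave-one-out and 5 other differences near 0 (at most 0.05 in size) among 100 member results changed sign uncalled, as did 28 and 9 among 162 list gene results (at most 0.15). In 1200 leave-one-out values of members 35 calls were lost and 12 gained, and in 800 others 15 and 16. The 9 sham calls were 9 in every leave-one-out fit. Of the member counts against Sham, PH30 (2) was 1 with the groups alone and 0 at 0.01, and 0 to 3 over leave-one-out fits; PH70 (2) was 5 with array weights, 5 without rats 95 and 139, and 2 to 4 over leave-one-out fits; PH90 (5) was 8 with the groups alone and 5 to 7 over leave-one-out fits. Other positive genes in Sham over Unoperated (6) were 11 with array weights and 11 with quantile normalization; in PH30 (1) they were 2 without rats 95 and 139, 0 at 0.01 and 0 to 1 over leave-one-out fits; in PH70 (4) they were 2 at 0.01. Negative genes in Sham over Unoperated (1) were 2 with the groups alone, 0 at 0.01 and 0 to 1 over leave-one-out fits; in PH30 (2) they were 4 with quantile normalization. Signalling genes in Sham over Unoperated (2) were 5 with the groups alone, 4 with array weights and 4 without rats 95 and 139; in PH30 (4) they were 7 with array weights, 7 without those rats, 7 with quantile normalization, 1 at 0.01 and 1 to 6 over leave-one-out fits; in PH70 (10) they were 5 at 0.01. The cause of these shifts was not tested, except that a threshold of 0.01 calls fewer genes by construction and quantile normalization gives every array one spread by construction. A filter on low values was not run. No paired analysis was possible because rat numbers are not repeated between groups.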
